A study of Mus musculus with 24 samples.

Results

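The comparison described here is the late morning step of a circadian time course of mouse liver, CT06 minus CT03. It rests on 6 of the 24 arrays of the series, 3 from livers taken at CT03 and 3 from livers taken at CT06. All 19935 genes with a single symbol on the array were compared, and the spread of each gene was estimated from all 24 arrays. The animals of both groups were adult male C57BL/6 mice that had been entrained to 12 h of light and 12 h of dim red light, were then moved to constant dim red light and gave their livers on the second cycle with food always available. The groups therefore share strain, sex, lighting history and feeding, and differ by 3 h of circadian time. RNA of each liver was extracted and hybridised on its own, to an Affymetrix mouse Gene ST array, so that the arrays of a time are separate animals. The labels mention 4 mice per harvest in one place and 3 replicates in another. By convention the former time of lights-on is CT00, so CT03 and CT06 lie in the subjective day, when mice rest.

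In the liver clock, the activators CLOCK and BMAL1 bind E-boxes and switch on the genes of their own repressors, the PER and CRY proteins, and of further factors such as DBP and the nuclear receptors REV-ERB alpha and beta. The REV-ERB receptors in turn repress Arntl, which encodes BMAL1, through ROR elements, the sites that ROR receptors use to activate it. The PAR bZIP factors DBP, TEF and HLF activate genes through D-boxes, which NFIL3 occupies as a repressor. In liver these loops reach many genes of lipid, sugar and bile acid metabolism.

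All values below are log2 values relative to the median of the gene over the 24 arrays, so 0 is that median and no absolute level of a gene is known. A gene is called where its adjusted p, from limma with Benjamini-Hochberg adjustment over all genes, is under 0.05. The interquartile ranges of the 6 arrays ran from 0.101 to 0.131, with the widest in CT06 replicate 3. The 10 measured hepatocyte markers were all in the brighter class of probe sets and none (0) was called. Of 80 measured markers in 11 cell type lists 0 were called. The mean of 10 macrophage markers ran from -0.16 to -0.01 over the CT03 arrays and from -0.31 to 0.19 over the CT06 arrays. The 7 muscle markers had means of 0.02 to 0.03 at CT03 and -0.06 to 0.00 at CT06, which do not overlap, while the means of the other lists overlapped. The part of these markers in the results was not tested except for the macrophage list, with which as a covariate 31 genes were called and 2 of the 28 calls reported below were lost, those of Cpt1a (adjusted p = 0.0532) and Rnf125 (0.0528).

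Between CT03 and CT06 the activator gene Arntl fell 2.37-fold and the output factor gene Dbp rose 3.63-fold. In all, 28 of 19935 genes were called (0.140%), of which 8 were higher at CT06 (0.0401%) and 20 were lower (0.100%). At an unadjusted p under 0.05 there were 1014 genes (5.09%), 497 of them higher (2.49%) and 517 lower (2.59%). The called differences ran from 0.37 to 1.86 in size, against a median of 0.05 over all genes and a median standard error of 0.08. In each of the 28 genes the 3 CT06 arrays lay apart from the 3 CT03 arrays, which was also so in 12.9% of all genes. In bulk liver, fewer cells of a type and less RNA per cell cannot be told apart.

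The number of calls changed when 1 array was left out. Each such fit also has fewer arrays in 1 group, so lost precision and the influence of 1 animal cannot be told apart. Without CT03 replicate 1, 2 or 3 there were 8, 3 and 15 calls, and without CT06 replicate 1, 2 or 3 there were 22, 19 and 5. Arntl, Grk5 and Tef were called whichever of these arrays was left out, and each other call was lost at least once, without a change of sign. When medians and spreads of the arrays were made equal, 22 genes were called higher and 32 lower.

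**Figure D1:**
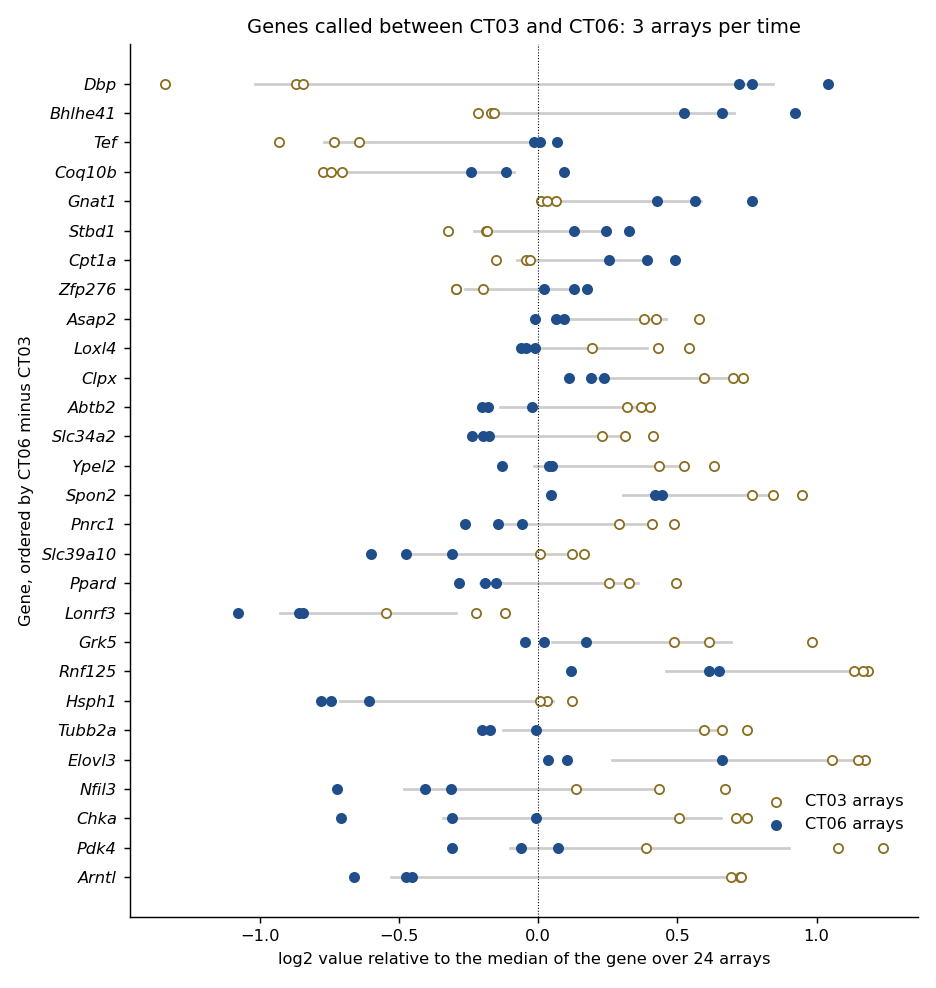
The log2 value of each called gene (vertical axis, ordered by the CT06 minus CT03 difference) in the 3 CT03 arrays (open points) and the 3 CT06 arrays (filled points), relative to the median of the gene over 24 arrays, with grey lines between the group means. Dbp at the top shows the widest rise, 1.86, and Arntl at the bottom the widest fall, -1.25, and in no gene do the open and filled points overlap.

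In the list of clock activators and ROR-element genes, Arntl and Nfil3 fell. Arntl stood at 0.69, 0.72 and 0.73 in the CT03 arrays and at -0.45, -0.47 and -0.66 in the CT06 arrays. The CT03 animals were nearly identical and every CT06 animal lay far below them. The difference was -1.25 ± 0.13 (SE), with an adjusted p of 8.8e-05, the smallest of the comparison. Nfil3, which encodes the D-box repressor, had 0.67, 0.43 and 0.14 at CT03 and -0.31, -0.41 and -0.72 at CT06. Its CT03 animals differed more among themselves, yet the lowest of them was above the highest CT06 animal. The difference was -0.89 ± 0.16 (SE), adjusted p = 0.0165. The call of Nfil3 was lost without CT03 replicate 1 (adjusted p = 0.156), CT03 replicate 2 (0.105) or CT06 replicate 3 (0.168).

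Both genes held the ROR element TAGGTCA, on either strand, in the RefSeq promoter window (250 bases before to 50 bases from the start on, GRCm38.p6). The element was found in 2.63% of the 15612 tested genes with such a window, and among the 16 called lower genes with a window it was in these 2 only. In Arntl (chr7:113207530-113207558, + strand) it covers bases 31 to 37 from the start on. In Nfil3 (chr13:52981034-52981062, - strand) it lies 12 to 6 bases before the start, as the reverse complement. Both starts lie inside the span that RefSeq gives the gene, and Arntl has 2 listed starts. The sequences are shown because these are the pair of clock genes that fell, with the element in capitals.
Arntl: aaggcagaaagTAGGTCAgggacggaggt
Nfil3: gcgctcggaacTGACCTActaacacacat

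The other members of this list were not called. Clock, the partner of Arntl, had 0.20, 0.26 and 0.30 at CT03 and -0.01, 0.01 and 0.05 at CT06, a difference of -0.24 ± 0.07 (SE) that was not called (adjusted p = 0.396). Rora, an activator at ROR elements, had a difference of -0.29 ± 0.11 (adjusted p = 0.730), also without overlap. Rorb (-0.02) and Arntl2 (0.05) overlapped between the times. Of the 6 measured members, 2 were called lower (0.100% of all genes) and 0 higher (0.0401%). The median difference was -0.26, against -0.0024 over all genes.

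The receptor genes that act on ROR elements, Nr1d1 and Nr1d2, were higher at CT06 in every array, but neither was called. Nr1d1, which encodes REV-ERB alpha, had 1.49, 0.38 and 1.23 at CT03 and 1.72, 1.57 and 1.88 at CT06. At CT03 replicate 2 was far below the other 2 animals, which lay close to the CT06 range. The difference was 0.69 ± 0.29 (SE), adjusted p = 0.894, and its mean at CT06 was the highest of the 8 times. In the step before, CT03 minus CT00, Nr1d1 had a difference of 1.92 (adjusted p = 0.0335), the only call of that step. Nr1d2, which encodes REV-ERB beta, went from -0.03, -0.47 and -0.07 to 0.50, 0.43 and 0.76, with a difference of 0.75 ± 0.25 (adjusted p = 0.566). Here too CT03 replicate 2 was the lowest array.

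Among the E-box and D-box genes Dbp rose most. Its CT03 arrays were at -0.87, -1.34 and -0.84 and its CT06 arrays at 0.77, 0.72 and 1.04. The lowest CT06 animal was well above the highest CT03 animal. The difference was 1.86 ± 0.29 (SE), adjusted p = 0.00716, and the call was lost without CT03 replicate 2 (adjusted p = 0.0696) or CT06 replicate 3 (0.0721). Tef, a related PAR bZIP factor, went from -0.93, -0.64 and -0.73 to -0.01, 0.01 and 0.07. The CT06 animals lay within a narrow range, and the difference was 0.79 ± 0.10 (adjusted p = 0.00230). Hlf, the remaining member of that family, had a difference of 0.30 ± 0.08 that was not called (adjusted p = 0.276), although its arrays did not overlap either.

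Bhlhe41, which encodes the E-box repressor DEC2, was at -0.22, -0.17 and -0.16 at CT03 and at 0.53, 0.66 and 0.92 at CT06. The CT03 arrays were close together and the CT06 arrays spread upward from them. The difference was 0.88 ± 0.14 (SE), adjusted p = 0.00716, and the call was lost without CT03 replicate 1 (adjusted p = 0.0566), CT03 replicate 2 (0.0568) or CT06 replicate 3 (0.0943). Its paralogue Bhlhe40 had a difference of the same size, 0.88 ± 0.20, with a wider spread and an adjusted p of 0.104.

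Period and cryptochrome genes had estimates of unlike size and sign, and none of them was called. Per3 went from -0.76, -0.76 and -0.80 to -0.04, -0.17 and 0.04, a difference of 0.72 ± 0.15 (SE) that just missed the threshold (adjusted p = 0.0535). Per1 had a difference of 0.50 ± 0.13 (adjusted p = 0.263) and its arrays did not overlap. Per2 had 0.20 ± 0.13 and its arrays overlapped. Ciart, an E-box repressor, went from -0.73, -1.03 and -1.12 to 0.06, -0.08 and 0.23, with a difference of 1.03 ± 0.23 and an adjusted p of 0.0812. Cry2 had 0.19 ± 0.09 with overlapping arrays. Cry1 was the only one of the 13 members below 0 in this step, from -0.30, -0.09 and -0.16 to -0.69, -0.45 and -0.84. Its difference of -0.48 ± 0.12 was not called (adjusted p = 0.214), and no array overlapped.

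Over the 13 members of this list, 3 were called higher (0.0401% of all genes) and 0 lower (0.100%). Of the 13, 10 lay apart upward (5.81% of all genes) and 1 downward (7.12% of all genes). The median difference of the list was 0.72, and 0.85 after medians and spreads were made equal. Usp2, a deubiquitinase of clock proteins, had 0.60 ± 0.13 (SE) and an adjusted p of 0.0535, the smallest of the 12 measured clock protein modifiers, of which 0 were called.

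The E-box CACGTG was found in 9.5% of the promoter windows of all tested genes. It was in 3 of the 6 called higher genes with a window (Tef, Bhlhe41 and Coq10b), in 2 of 16 called lower genes (Hsph1 and Lonrf3), and in 5 of 11 genes of the repressor and PAR bZIP list (Per1, Cry1, Ciart, Bhlhe41 and Tef). Dbp had a window without these letters in it. The D-box TTANGTAA was in 2.41% of all windows, in Coq10b among the called genes and in Per3 among the repressor list. The sequences below show the E-boxes of the 3 called genes that hold one and of Ciart, whose window holds 3, with the E-box in capitals and the strand of the gene read 5′ to 3′. They lie before the start, at chr15:81802506-81802591 (Tef, + strand, bases 127 to 122 before the start), chr6:145865528-145865613 (Bhlhe41, - strand, 153 to 148), chr1:55052652-55052737 (Coq10b, + strand, 78 to 73) and chr3:95882258-95882384 (Ciart, - strand, from 116, 58 and 44 bases before the start).
Tef: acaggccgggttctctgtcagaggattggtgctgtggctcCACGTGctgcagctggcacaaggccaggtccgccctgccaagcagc
Bhlhe41: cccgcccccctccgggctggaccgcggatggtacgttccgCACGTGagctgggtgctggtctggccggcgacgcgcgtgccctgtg
Coq10b: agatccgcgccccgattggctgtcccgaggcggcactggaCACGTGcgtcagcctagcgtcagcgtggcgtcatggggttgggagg
Ciart: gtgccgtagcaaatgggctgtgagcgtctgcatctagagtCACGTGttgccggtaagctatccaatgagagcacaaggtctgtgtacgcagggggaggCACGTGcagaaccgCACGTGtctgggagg

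**Figure D2:**
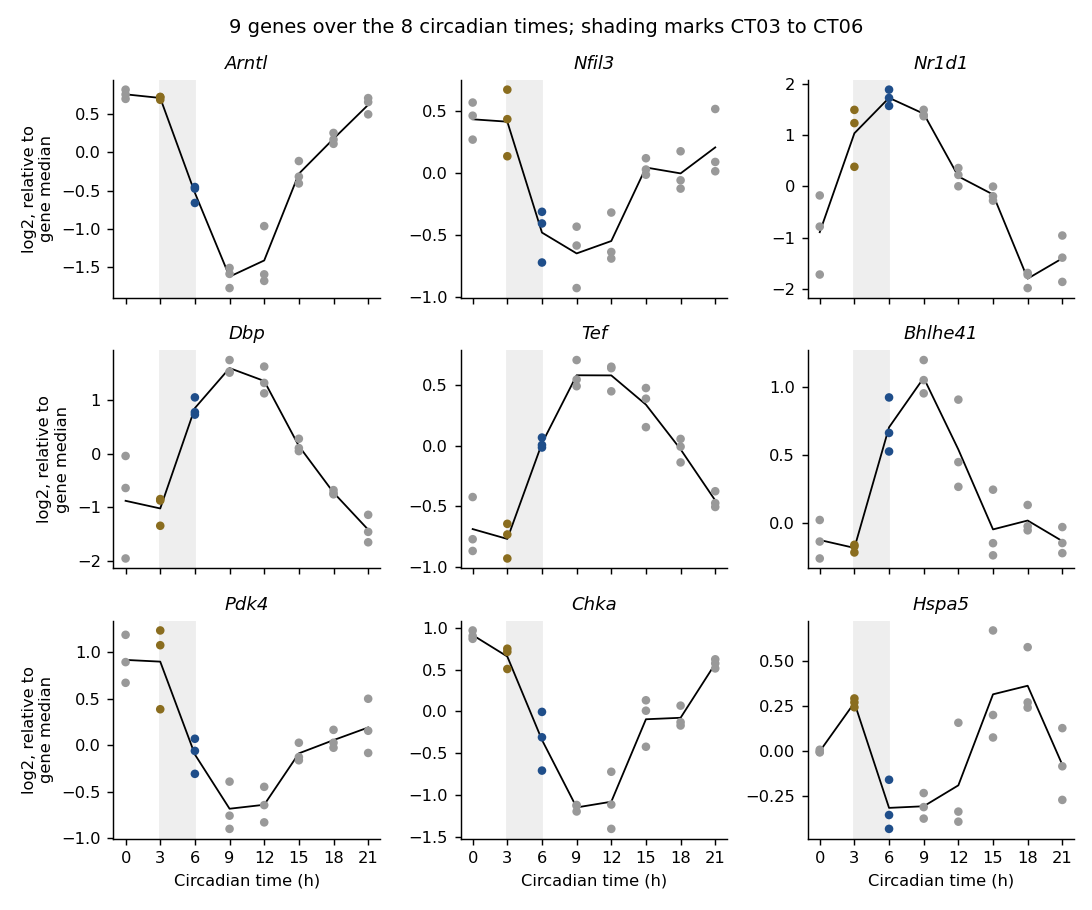
The log2 values of 9 genes in all 24 arrays against circadian time in h, with points for arrays, lines through the means of 3 arrays and grey shading from CT03 to CT06. Arntl, Nfil3, Pdk4 and Chka drop across the shaded step to their lowest mean at CT09, Nr1d1 is highest at CT06, Dbp, Tef and Bhlhe41 climb to CT09, and Hspa5 steps down from its 3 closely spaced CT03 arrays.

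Genes of fuel choice moved in both directions. Pdk4, which encodes a kinase that slows the oxidation of pyruvate, fell 2.00-fold, from 1.08, 1.24 and 0.39 to 0.07, -0.06 and -0.31. CT03 replicate 3 was much lower than the other CT03 animals but still above all CT06 animals. The difference was -1.001 ± 0.19 (SE), adjusted p = 0.0296, and the call held only without CT03 replicate 3 and was lost without any other of the 6 arrays (adjusted p from 0.0509 to 0.297). Cpt1a, which lets long-chain fatty acids into mitochondria, rose 1.37-fold, from -0.05, -0.03 and -0.15 to 0.26, 0.39 and 0.49. The difference was 0.46 ± 0.09 (adjusted p = 0.0459), and the call was kept without CT06 replicate 1 only (adjusted p from 0.129 to 0.409 without the others) and was lost with the macrophage covariate (0.0532).

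Both genes belong to a list of 24 measured genes of PPAR alpha signalling and fatty acid oxidation, in which they were the only calls and the median difference was 0.09. Ppara itself, the nuclear receptor that drives the pathway, had a difference of 0.42 ± 0.10 (SE) without overlap but was not called (adjusted p = 0.131). Ppard, the delta form of the receptor, fell from 0.50, 0.33 and 0.26 to -0.19, -0.15 and -0.29. The difference was -0.57 ± 0.11, adjusted p = 0.0267, and the call was lost without any 1 of the 6 arrays (adjusted p from 0.0547 to 0.222). It was the only call among 30 measured nuclear receptors outside the REV-ERB and ROR families.

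Chka and Elovl3, which act on lipids but stand in different lists, both fell. Chka, which encodes choline kinase alpha, the first step from choline to phosphatidylcholine, went from 0.75, 0.71 and 0.51 to -0.31, -0.01 and -0.71. The 3 CT06 animals differed widely among themselves and all lay below CT03. The difference was -0.998 ± 0.16 (SE), adjusted p = 0.00864, the only call among 16 measured genes of methionine, taurine and glutathione synthesis, the list that holds Chka. The call was lost without CT03 replicate 1 (adjusted p = 0.0826), CT03 replicate 2 (0.0696) or CT06 replicate 3 (0.0978). Elovl3, which lengthens very-long-chain fatty acids, went from 1.18, 1.15 and 1.05 to 0.10, 0.66 and 0.04, with CT06 replicate 2 well above the other CT06 animals. The difference was -0.86 ± 0.17, adjusted p = 0.0348. Its call was kept only without CT06 replicate 2 (0.0971 to 0.376 without the others) and was also lost when medians and spreads were made equal (0.0883). Elovl3 was the only call among 24 measured genes of fatty acid and triglyceride synthesis, whose median difference was 0.03.

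In the other lipid lists no gene was called. Angptl4, an inhibitor of lipoprotein lipase, had a difference of 0.91 ± 0.21 (SE), from CT03 arrays that were nearly equal (-0.50, -0.50 and -0.49) to CT06 arrays at 0.11, 0.72 and 0.41, with an adjusted p of 0.131. Abcg8, which forms the sterol exporter with Abcg5, had 0.65 ± 0.13 and an adjusted p of 0.0505, and Abcg5 had 0.58 ± 0.16 and 0.268. In the list of cholesterol synthesis and uptake, 5 of 22 measured genes lay apart downward (7.12% of all genes) and 1 upward (5.81%), and the median difference was -0.14. Mvd, an enzyme of the mevalonate pathway, had the smallest p of that list, with -0.41 ± 0.14 and an adjusted p of 0.646. The lipases Pnpla2 (0.32 ± 0.08) and Mgll (0.35 ± 0.10), chosen after their values were seen, lay apart upward without a call.

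Several chaperone genes of the cytosol and the endoplasmic reticulum had negative differences, and 1 of them was called. Hsph1, a large chaperone of the heat shock family, went from 0.03, 0.12 and 0.01 to -0.61, -0.75 and -0.78. Both groups were tight. The difference was -0.77 ± 0.13 (SE), adjusted p = 0.0165, and CT06 was the time of its lowest mean. Its call was kept without CT06 replicate 1 only (adjusted p from 0.0651 to 0.152 without the others). Of 18 measured heat shock chaperones, 5 lay apart downward (7.12% of all genes) and 1 upward (5.81%), with a median of -0.05. The heat shock element GAANNTTC was found in 7.94% of all windows, in 3 of 16 called lower genes (Hsph1, Grk5 and Pnrc1) and in 1 of 6 called higher genes (Stbd1).

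In the endoplasmic reticulum list, 0 of 25 measured genes were called, 11 lay apart downward (7.12% of all genes) and 1 upward (5.81%). At an unadjusted p under 0.05 there were 10 lower members (2.59% of all genes), and the median difference was -0.18. Syvn1, a ubiquitin ligase that clears misfolded proteins, had the smallest p, with -0.90 ± 0.22 (SE) and an adjusted p of 0.153. The others named here were chosen after their values were seen. Hspa5, the main chaperone of the compartment, went from 0.29, 0.27 and 0.24 to -0.16, -0.43 and -0.36, a difference of -0.58 ± 0.14 with an adjusted p of 0.161. Manf (-0.68 ± 0.17), a secreted stress factor, and Hyou1 (-0.53 ± 0.16), a chaperone, had adjusted p of 0.196 and 0.366. Herpud1, a part of the degradation machinery, went the other way, with 0.23 ± 0.09. Xbp1 (0.06) and Atf4 (-0.08), transcription factors of the response, overlapped between the times.

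In the cytoskeleton list 1 gene was called. Tubb2a, a beta tubulin, went from 0.66, 0.75 and 0.60 to -0.17, -0.01 and -0.20, a difference of -0.80 ± 0.15 (SE) with an adjusted p of 0.0348. The groups were far apart, yet the call was lost without any 1 of the 6 arrays (adjusted p from 0.0719 to 0.264). Of 17 measured genes of actin, tubulin and serum response factor targets, 4 lay apart downward (7.12% of all genes), 0 upward (5.81%), and the median was -0.11. Tubb5, chosen after its values were seen, had 0.32, 0.32 and 0.32 at CT03 and 0.01, 0.04 and 0.07 at CT06, with an adjusted p of 0.311.

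The remaining called lower genes belong to none of the groups above. Grk5, a kinase of G protein coupled receptors, went from 0.49, 0.61 and 0.98 to 0.02, -0.05 and 0.17, a difference of -0.65 ± 0.10 (SE) with an adjusted p of 0.00716. It was among the 3 calls that held without each array. Slc39a10, a zinc importer, went from 0.12, 0.16 and 0.01 to -0.31, -0.60 and -0.47 (-0.56 ± 0.08, adjusted p = 0.00716). Of the 6 arrays left out in turn, only CT03 replicate 2 cost it the call (adjusted p = 0.0568). Clpx, a subunit of a mitochondrial protease, went from 0.59, 0.73 and 0.70 to 0.11, 0.19 and 0.24 (-0.50 ± 0.08, adjusted p = 0.00716), and its call was likewise lost without that array alone (0.0696). In both genes the arrays of each time lay close together.

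Rnf125, a ubiquitin ligase, was high and even at CT03 (1.13, 1.18 and 1.17) and uneven at CT06, where replicate 1 stood at 0.12 and the others at 0.65 and 0.61. The difference was -0.70 ± 0.14 (SE), adjusted p = 0.0442. Without CT06 replicate 1 it was -0.53 with an adjusted p of 0.206. The call was also lost without CT03 replicate 1, 2 or 3 (adjusted p = 0.170, 0.177 and 0.159), without CT06 replicate 3 (0.107) and with the macrophage covariate (0.0528). Spon2, a secreted matrix protein, went from 0.85, 0.95 and 0.77 to 0.42, 0.45 and 0.05, with CT06 replicate 3 as its lowest array (-0.55 ± 0.09, adjusted p = 0.0159). Its call was lost without that array (-0.42, adjusted p = 0.121) and without CT03 replicate 1 (0.0868) or 2 (0.116). Lonrf3 had -0.63 ± 0.11 (adjusted p = 0.0165) and, like Hsph1, its lowest mean at CT06. Its call was lost without CT03 replicate 2 (adjusted p = 0.138), CT03 replicate 3 (0.0964) or CT06 replicate 3 (0.168).

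Pnrc1, a coactivator of nuclear receptors, had a difference of -0.55 ± 0.10 (SE), adjusted p = 0.0165, and Ypel2 one of -0.54 ± 0.11 (0.0348). Slc34a2, a phosphate transporter, had -0.52 ± 0.10 (0.0442) and Abtb2 -0.50 ± 0.09 (0.0243). Loxl4, a lysyl oxidase, had -0.43 ± 0.07 (0.00716) as the mean of its 2 probe sets. Tested each on its own, both probe sets fell, with -0.52 (adjusted p = 0.0149) and -0.34 (0.444), and only the first was called. Asap2, a regulator of ARF proteins, had -0.41 ± 0.07 (0.0108). Without 1 of the arrays the calls of Ypel2 and Slc34a2 were lost each time, those of Pnrc1 and Abtb2 in 5 of 6 cases, that of Asap2 in 3 and that of Loxl4 in 2, with adjusted p of up to 0.354. The mean of the 3 CT03 arrays lay above 0 in these 6 genes, and Lonrf3 was the only called lower gene with a mean below 0 at CT03 (-0.30).

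Of the called higher genes outside the clock lists, Coq10b, which binds coenzyme Q in mitochondria, went from -0.77, -0.74 and -0.70 to -0.12, -0.24 and 0.09. The mean of its CT03 arrays was the lowest of the 8 times, and the difference was 0.65 ± 0.11 (SE), adjusted p = 0.0108. The call was lost without CT03 replicate 1 (0.0868), CT03 replicate 2 (0.0702) or CT06 replicate 3 (0.121). Stbd1, a glycogen-binding protein, went from -0.32, -0.19 and -0.18 to 0.33, 0.24 and 0.13 (0.47 ± 0.09, adjusted p = 0.0267). Gnat1, the alpha subunit of rod transducin, went from 0.06, 0.01 and 0.03 to 0.43, 0.56 and 0.77 (0.55 ± 0.10, adjusted p = 0.0267), with its highest mean at CT06. Zfp276, a zinc finger protein, had 0.37 ± 0.07 (adjusted p = 0.0223), the smallest difference called. With 1 array left out at a time, the calls of Gnat1 and Zfp276 were lost in 5 of 6 cases and that of Stbd1 in all 6, with adjusted p of up to 0.301.

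Below the threshold, Slc38a3, a glutamine transporter, came closest among the higher genes, with 0.34 ± 0.07 (SE) and an adjusted p of 0.0504. Inhbe, a hepatokine of the activin family, had 0.60 ± 0.12 and 0.0535. Wee1, a kinase that holds the cell cycle before mitosis, had 0.70 ± 0.17 and 0.182. Rgs16, a regulator of G protein signalling, had the widest difference of the uncalled list genes upward, 1.17 ± 0.34, and an adjusted p of 0.341. Its CT03 arrays ran from -0.78 to 0.29 and its CT06 arrays from 0.44 to 1.12, so 1 CT03 animal came near the CT06 group.

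Igfbp1, an insulin-repressed binding protein of insulin-like growth factors, was the counterpart downward, with 0.97, 0.90 and 0.87 at CT03, 0.07, -0.12 and -0.38 at CT06, a difference of -1.05 ± 0.29 and an adjusted p of 0.268. Egr1, an immediate early gene, had -0.58 ± 0.18 and 0.400. Tfrc, the transferrin receptor, had -0.66 ± 0.27 and 0.847, with overlapping arrays.

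Of the 35 pathway lists, 8 held at least 1 called gene, all of them named above. In the ribosomal proteins (11 measured), the respiratory chain (22) and heme and iron metabolism (19), 0 genes lay apart in either direction. In the proteasome 1 of 25 did. The share over all genes was 12.9%, and lists this small hold few such genes at that share. The member with the smallest p was Rpl7 in the ribosomal proteins (0.08 ± 0.06), Ndufb5 in the respiratory chain (0.07 ± 0.07), Psma4 in the proteasome (0.10 ± 0.06) and Tfrc, given above, in heme and iron metabolism. Upward separation, seen in 5.81% of all genes, was found in 5 of 20 genes of gluconeogenesis and amino acid catabolism. Slc2a2, the glucose transporter of hepatocytes, had the smallest p of that list (0.25 ± 0.09), but its arrays overlapped. In autophagy and lysosome 5 of 23 lay apart upward, with Bnip3, a mitophagy receptor, at 0.41 ± 0.12 (adjusted p = 0.355). In xenobiotic metabolism 3 of 25 did, near the share of all genes, with the glutathione transferase Gstt2 at 0.48 ± 0.14.

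**Figure D3:**
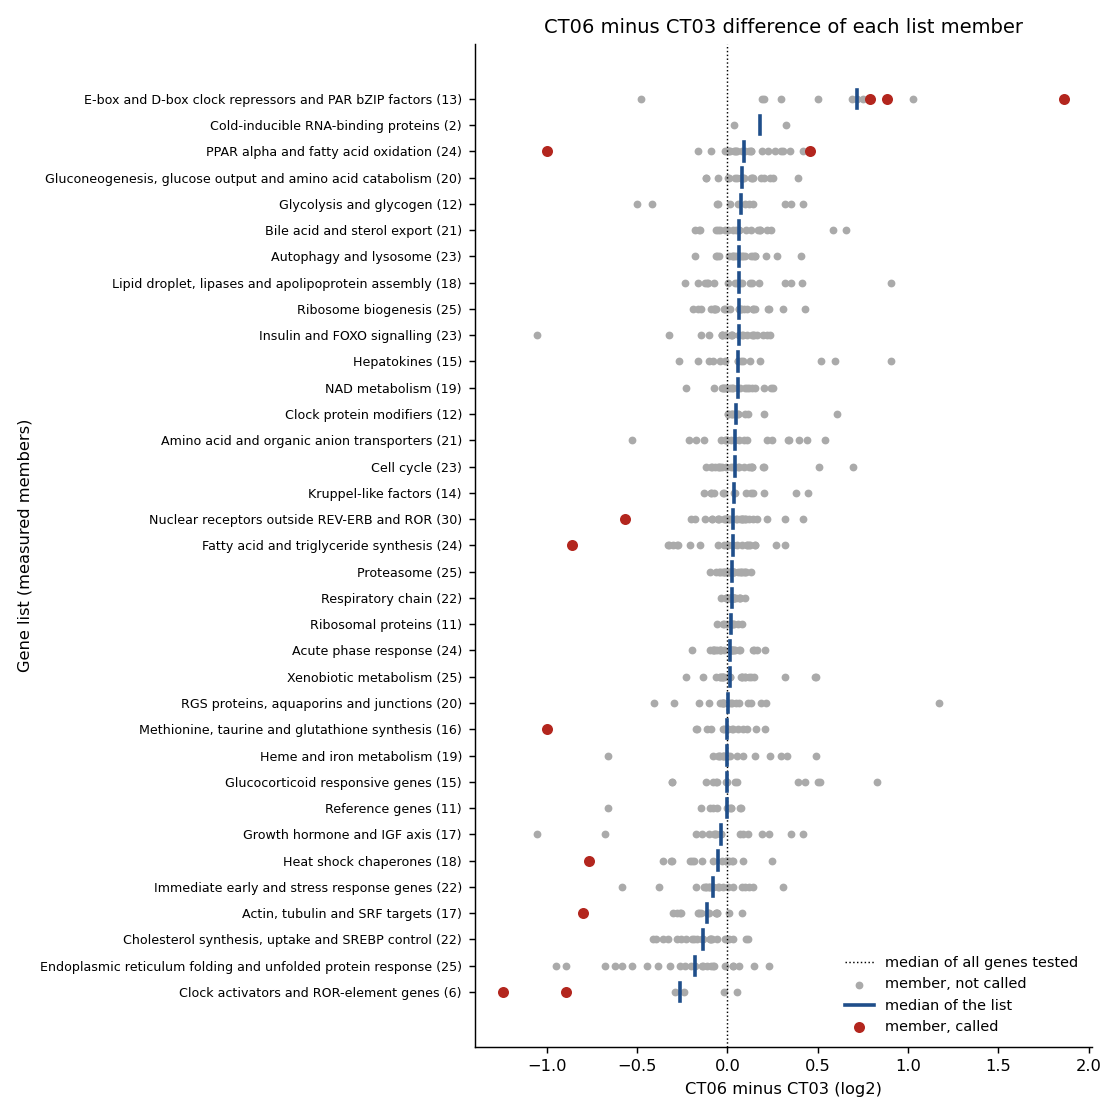
The CT06 minus CT03 difference (log2) of every measured member of 35 gene lists, with called members as large points, uncalled members as small grey points and a bar at the median of each list; the number of measured members is in brackets and the dotted line is the median of all genes. The repressor and PAR bZIP list has its median at 0.72 and the activator list at -0.26, whereas ribosomal and respiratory chain genes cluster at 0.

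Across the day, the called lower genes mostly left a high plateau. Of the 20, 10 had their highest mean at CT00 and 6 at CT03, and 8 had their lowest at CT09 and 9 at CT12. Of the 8 called higher genes, 5 had their lowest mean at CT03, 5 their highest at CT09 and 2 at CT12. These times are a description, since the genes were chosen for their CT03 and CT06 values. The neighbouring steps share arrays with this one. In the step before, CT03 minus CT00, Arntl had -0.05, Chka -0.26, Dbp -0.14 and Coq10b -0.54, none of them called. In the step after, CT09 minus CT06, Arntl had -1.10 (adjusted p = 0.000129), Elovl3 -1.25 (0.000554), Clpx -1.14 (3.16e-08), Chka -0.81 (0.0141), Tef 0.56 (0.00829) and Coq10b 0.75 (0.00122). Nfil3 (-0.17) and Slc39a10 (-0.04) had small differences in that later step and were not called in it.

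The number of calls varied widely between the 8 steps. There was 1 call in CT03 minus CT00, that of Nr1d1, which was higher at CT03. CT06 minus CT03 had 28 calls and CT09 minus CT06 had 170, of which 135 were lower. The steps from CT09 to CT12, CT12 to CT15, CT15 to CT18 and CT18 to CT21 gave 21, 113, 29 and 43 calls, and the step from CT21 to CT00 gave 1.

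The step 12 h later, CT18 minus CT15 in the subjective night, uses other arrays, so the difference between both steps could be tested. It was called for 90 genes (0.451%), with the morning step higher in 55 and lower in 35. Of the 28 called genes 16 differed between the steps, 6 of the higher and 10 of the lower ones, and 21 had the opposite sign at night. Only 1 of the 28 was itself called in CT18 minus CT15, so most of these signs rest on uncalled night values. The share of all genes with opposite signs was not counted. The 28 calls were made on the same CT03 and CT06 arrays that enter this difference. Arntl fell by 1.25 in the morning and had 0.46 at night, a difference of -1.70 ± 0.18 (SE) with an adjusted p of 0.000128. Dbp had 1.86 and -0.86 (2.73 ± 0.40, adjusted p = 0.00182), Tef 0.79 and -0.37 (1.16 ± 0.15, 0.000688) and Coq10b 0.65 and -0.55 (1.20 ± 0.15, 0.000688).

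Metabolic genes were among those whose steps differed. Cpt1a had 0.46 in the morning and -0.44 at night (difference 0.90 ± 0.13, adjusted p = 0.00137), and Elovl3 had -0.86 and 0.39 (-1.25 ± 0.23, 0.0178). The difference of Clpx was -0.80 ± 0.11 and that of Slc39a10 -0.83 ± 0.12, with an adjusted p of 0.00113 each. Chka had -0.998 and 0.02, a difference just past the threshold (adjusted p = 0.0474). Bhlhe41 (0.88 and 0.06), Nfil3 (-0.89 and -0.05), Pdk4 (-1.001 and 0.14) and Hsph1 (-0.77 and -0.26) were not shown to differ between the steps (adjusted p from 0.0613 to 0.294).

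**Figure D4:**
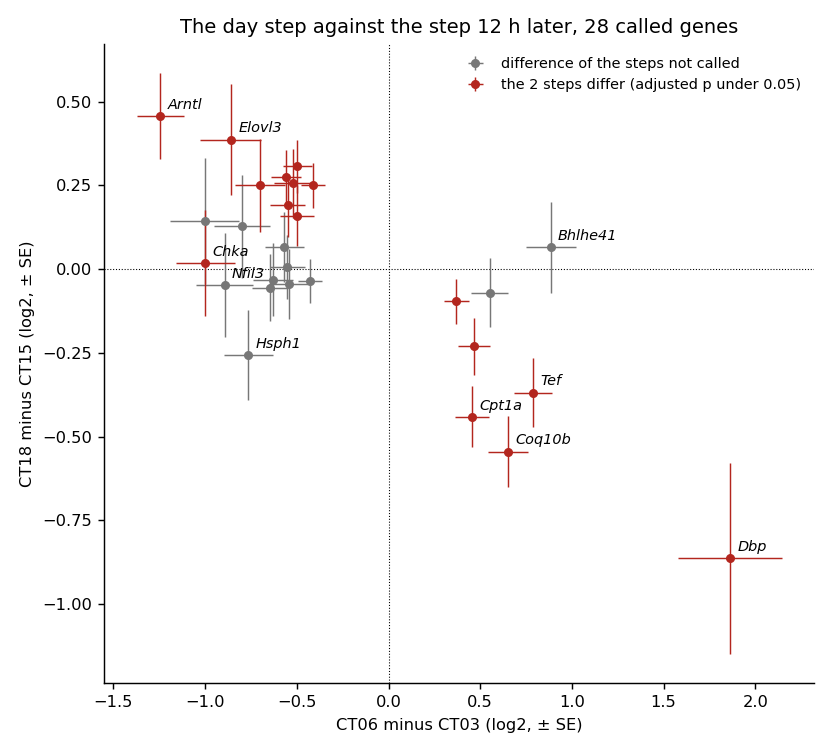
The CT18 minus CT15 difference against the CT06 minus CT03 difference (log2, bars are the standard error) for the 28 called genes, in red where the 2 steps differ at an adjusted p under 0.05. Dbp, Coq10b, Cpt1a and Tef lie at lower right (higher in the morning step, below 0 at night), Arntl and Elovl3 at upper left, and Hsph1 is below 0 in both steps.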

How the data were processed

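Values came from the deposited series matrix of 24 Affymetrix mouse Gene ST arrays, 3 per time. The authors' deposited values were treated as log2 values with each probe set's median over the arrays subtracted (row medians are 0 within 5e-07). The log base is not given in the sources used here, nor are background correction and normalization, so folds assume base 2. Depth cannot be stated for arrays, and their number limits the precision. Brightness is known only as a class (4007 probe sets in the upper, 24808 in the lower) read from the rounding steps. Of 28815 probe sets, 21780 had 1 symbol, 1605 several and 5430 no symbol in the platform annotation used. For each of 19935 genes the mean of its probe sets with a single symbol was taken (more than 1 in 998 genes).

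Group means were fitted to all 24 arrays with limma 3.58.1 in R 4.3.3 (lmFit, eBayes, 16 residual and 4.15 prior degrees of freedom) and adjusted by Benjamini-Hochberg over all genes at 0.05. The same fit gave the difference from CT18 minus CT15. An exact permutation of 3 against 3 arrays cannot go below p = 0.1, so none is given. The fit was also run on simulated data with independent normal noise in each array, so that run does not cover noise that arrays share. Replicate numbers were not treated as pairs in the main fit. Same-numbered CT03 and CT06 arrays deviated together with correlations of 0.188, 0.044 and 0.395. Over the whole series the median correlation was 0.111 for same-numbered arrays and -0.062 for others. Results with the replicate number as a block are given below.

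Genes were named by a rule: up to 15 called per direction by size (filled to 10 by p where fewer passed), all members of both clock lists, the called members of 33 further lists (at most 6, otherwise the smallest p), and the 5 smallest p of the step difference. The 5 called genes beyond the 15 largest falls, Ppara, Abcg5 and the genes so marked were named after their values were seen. The comparison, its lists and its tests were chosen with earlier results of these data known. Promoter windows, sequences and motif matches use RefSeq, GRCm38.p6. Called genes without a window are Asap2, Elovl3, Gnat1, Rnf125, Spon2 and Zfp276. A motif match is a description only. The 35 lists had 654 of 717 members measured. Alternatives were an extra minimum fold, a replicate block, other scalings, probe set choices, robust moderation, array weights, covariates, fewer arrays and leaving out each replicate.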

Additional observations from a re-analysis of the deposited data

Results flagged for a closer look

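The following 16 called genes had a CT06 minus CT03 difference that differed from their CT18 minus CT15 difference by limma's test of the difference itself, at an adjusted p under 0.05. They had first been called on the same CT03 and CT06 arrays, so this test was not independent of that choice. The difference of the steps (log2) was -1.70 for Arntl, -1.25 for Elovl3, -1.02 for Chka, -0.95 for Rnf125 and -0.83 for Slc39a10. It was -0.80 for Clpx, -0.78 for Slc34a2, -0.74 for Spon2, -0.66 for Asap2 and -0.66 for Abtb2. Among the higher genes it was 0.47 for Zfp276, 0.70 for Stbd1, 0.90 for Cpt1a, 1.16 for Tef, 1.20 for Coq10b and 2.73 for Dbp. Zfp276 had the smallest of these differences, with 0.37 in the morning and -0.10 at night.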

How the results depend on the processing

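The number of arrays limits these results. The 28 calls became 3 to 22 when 1 CT03 or CT06 array was left out. The 90 genes that differed from CT18 minus CT15 became 34 to 102 without 1 of these arrays, and 34 to 144 when CT15 and CT18 arrays were left out in turn as well. The 28 became 14 with a minimum of 1.5-fold, 54 with medians and spreads made equal, 8 of 2609 genes in the upper brightness class and 51 with array weights. The difference between the steps was called for 230 genes with array weights. With the replicate number as a replicate block, 45 genes were called (22 higher, 23 lower) and 161 differed between the steps, and 4 of the 6 arrays correlated best with their own number. All 28 calls were kept under the block. With only the 6 arrays compared, 23 genes were called, 11 of them among the 28. The covariate for small nucleolar RNA gave 42 calls, and that for macrophage markers, chosen after seeing the data, gave 31. None (0) of the 28 calls changed direction under these settings. The median of all genes went from -0.0024 to 0.0004 with array medians subtracted, and the medians of 5 lists close to 0 (glucocorticoid, heme and iron, methionine, RGS and reference genes) also changed sign under a scaling. Rorb (-0.06 to 0.04) and Cirbp (-0.05 to 0.10), neither called, changed sign when 1 array was left out. Arntl and Tef were called in every setting they entered. Among named genes not called, 19 were called in at least 1 setting, such as Per3 with the block (adjusted p = 0.0273), Abcg8 with array weights (0.0143) and Hspa5 with medians and spreads equal (0.0434). Filters on level, background correction and other normalizations of the arrays could not be run on median-centred values. A constant added ahead of the log step would shrink the differences of dim genes.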

Other observations

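Probe sets left out of the gene comparison were tested with the same limma fit. Of 5430 probe sets without a symbol, 2 were called (0.0368%), both lower at CT06, and of 1605 with several symbols 1 was called (0.0623%), which was higher. Of the 21780 probe sets with 1 symbol, tested each on its own, 21 were called (0.0964%), 7 higher and 14 lower.

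Other groups held single wide differences that did not pass. Mt1, a metallothionein that binds zinc and copper, was at -0.21, -0.07 and -0.36 at CT03 and at 0.59, 0.33 and 0.93 at CT06, a difference of 0.83 ± 0.23 (SE) with an adjusted p of 0.275 by limma. Slc39a10, a zinc importer, was called lower in the same step, and a link between both genes was not tested. Upp2, a uridine phosphorylase, had 0.70 ± 0.15 and an adjusted p of 0.0535, and Nrg4, a hepatokine, 0.52 ± 0.15 and 0.341. Gys2, the liver glycogen synthase, had 0.42 ± 0.10 and 0.190. Of the 12 measured genes of glycolysis and glycogen, 8 had positive and 4 had negative differences, with Ppp1r3b at -0.50 ± 0.16 (adjusted p = 0.459). The cold-inducible genes Rbm3 (0.33 ± 0.15) and Cirbp (0.04 ± 0.12) overlapped between the times. These genes were chosen after their values were seen.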
